A study of Nicotiana tabacum with 32 samples.

Results

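The D-type cyclins CYCD3.2 and CYCD3.3 and the Ran GTPase-activating protein RANGAP2 were followed in tobacco suspension cells in which the mitogen-activated protein kinase SIPK (salicylic acid-induced protein kinase) was silenced, and in wild-type cells after elicitor treatment. Members were the array clones whose only gene symbol was CYCD3.2, CYCD3.3 or RANGAP2. This gave 4 clones of 3 genes, on 8 spots, among 15360 clones on the array: 1 for each cyclin and 2 for RANGAP2, named RANGAP2 clone A and clone B here. Only 815 clones carried a single symbol, and 14455 carried none. The arrays held potato cDNA and were hybridised with tobacco RNA, so a clone may also read relatives of the gene it is named for.

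The cells were Nicotiana tabacum cv. Xanthi, grown in darkness at 25 C on MS medium. For every array the sources used here give 3 days in fresh medium. Silenced cells, labelled SIPK-Ri, carried an RNA interference construct, and whether they came from a single line is not given in the sources used here. In 8 groups of 3 arrays, SIPK-Ri cells were set against wild-type cells under the same condition. The conditions were a biotic control at 0 h; 4 h and 8 h of harpin, a protein elicitor of Pseudomonas syringae; 4 h and 8 h of megaspermin, labelled a Phytophthora megasperma elicitor; an abiotic control at 0 h, preincubated for 30 min with xanthine; and 4 h and 8 h of xanthine oxidase, which makes superoxide from xanthine. The xanthine oxidase groups had the same 30 min of preincubation with xanthine as the abiotic control. In 2 further groups of 3 arrays, wild-type cells at 4 h of harpin or of megaspermin were set against wild-type control cells. The labels of the wild-type megaspermin arrays name P. syringae as the source of that elicitor. Controls were taken at 0 h, so treatment and time since the control cannot be told apart. Each genotype's culture was pooled before it was divided into volumes of 10 ml, so the spread behind each p-value is that of aliquots from 1 pool and of their hybridisations.

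Each value is a ratio of the RNA on an array, read as log2, with the silenced or treated cells over the wild-type or control cells. The table states neither the log base nor the direction. The direction used is the likely one, because the labels name the silenced or treated cells as the query sample, although titles put the wild type first. Besides the 30 arrays with 1 dye orientation, 1 array of the abiotic control and 1 of wild-type harpin had the dyes exchanged. Their deposited values correlated positively with the other arrays of their group (r of 0.64 to 0.90 over clones), so the signs were used as given. Arrays had values for 5130 to 10935 clones, medians of -0.07 to 0.07, and correlations of 0.65 to 0.91 between replicates. Of all clones, 4245 had no value on any of the 30 arrays. No clone was recognised as SIPK itself, so the silencing was not checked here.

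D-type cyclins bind cyclin-dependent kinases of the CDKA type, and the complexes phosphorylate the retinoblastoma-related protein, which releases E2F factors at the entry into S phase. In Arabidopsis, CYCD3 genes respond to cytokinin and to sucrose, and they link division to these signals. RanGAP proteins make the small GTPase Ran hydrolyse its GTP, which sets the direction of nuclear transport and helps to order the spindle. In Arabidopsis they lie at the nuclear envelope and, during division, at the site of the new cell plate, and in potato and Nicotiana benthamiana RanGAP2 binds the immune receptor Rx.

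Coverage of the members was uneven. RANGAP2 clone A had no value on any array, a state it shared with 7 other clones among the 815 with 1 symbol, and everything said of RANGAP2 below rests on clone B. RANGAP2 clone B had a value on 21 of 30 arrays, with both spots measured on 14 of them. CYCD3.2 had a value on 24 arrays, with both spots on 16. CYCD3.3 had a value on 18 arrays, with both spots on 9. The median gap between the 2 spots of a clone was 0.24 for RANGAP2 clone B, 0.26 for CYCD3.2 and 0.26 for CYCD3.3, and the largest gaps were 0.78, 0.46 and 1.04. The sources used here do not say why a spot lacks a value. A clone was tested in a comparison when at least 2 of the 3 arrays in each group had a value.

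RANGAP2 was lower in SIPK-silenced cells than in wild-type cells on every genotype array that measured it. All 19 of these arrays lay below 0, between -1.16 and -0.16, with a median of -0.63. In the biotic control the 3 arrays read -1.02, -0.48 and -0.66. In the abiotic control they read -0.89, -0.93 and -0.63. Both controls thus had RANGAP2 lower in silenced cells on 3 of 3 arrays. The mean was -0.72 ± 0.14 (SE, n = 3) in the biotic control, 1.65-fold lower in silenced cells (limma, adjusted p = 3.97e-04). It was -0.82 ± 0.14 (SE, n = 3) in the abiotic control, 1.76-fold lower (limma, adjusted p = 1.28e-04). A difference between the controls was not found (biotic minus abiotic 0.10, 95% interval -0.31 to 0.51, limma, adjusted p = 0.934).

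**Figure D1:**
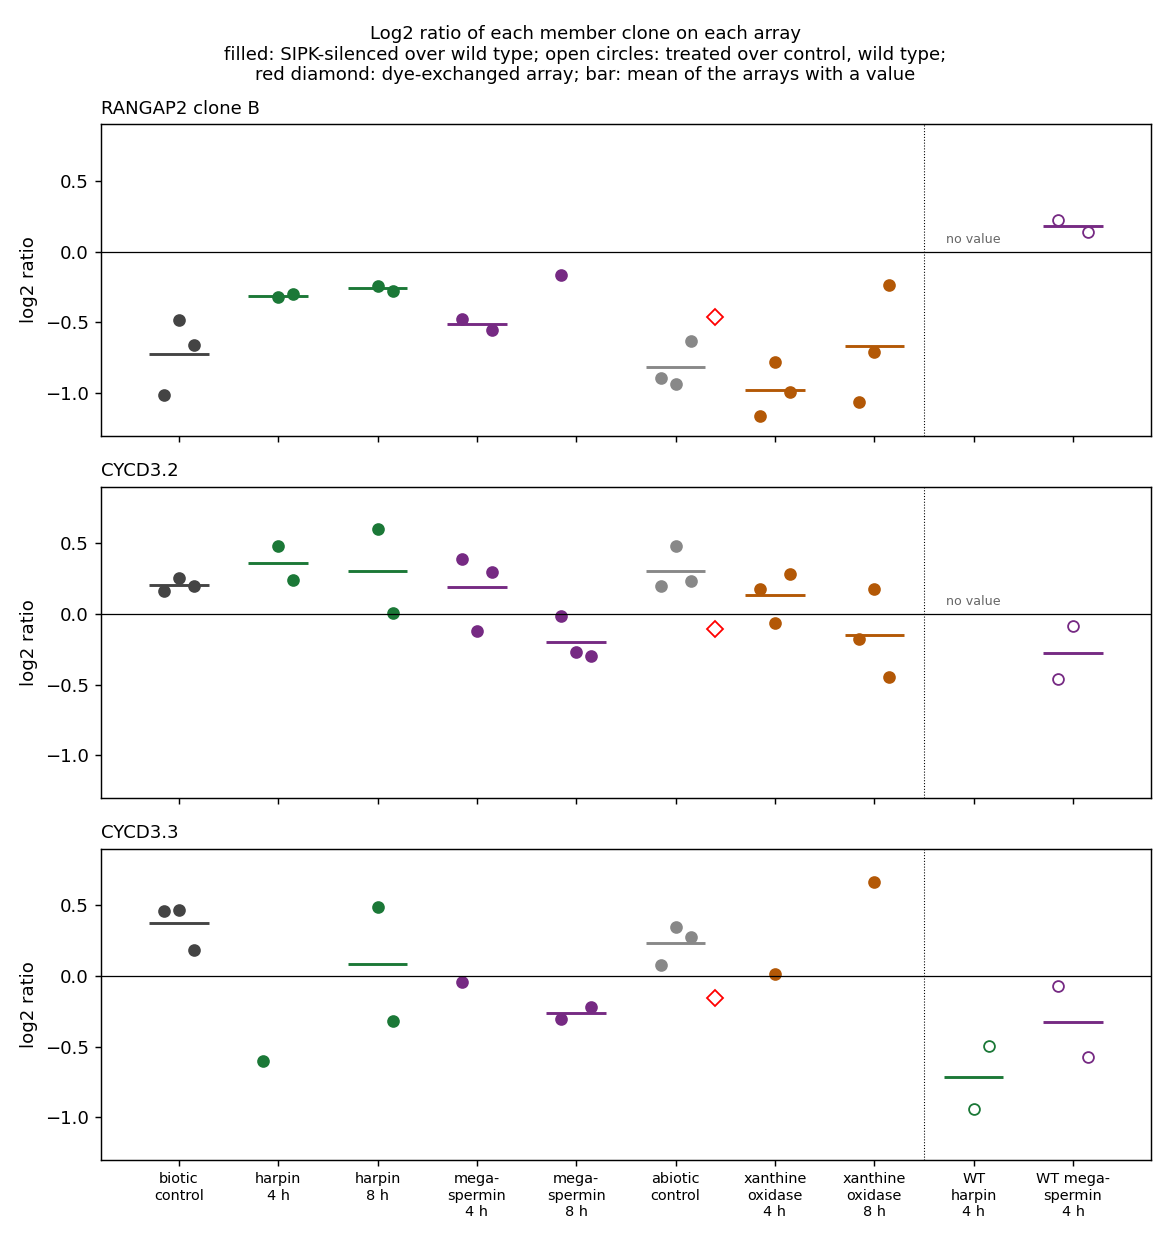
Log2 ratio (vertical axis) of RANGAP2 clone B, CYCD3.2 and CYCD3.3 on each array, by condition (horizontal axis). Filled circles are SIPK-silenced over wild type, open circles are treated over control in wild-type cells, bars are means of groups with at least 2 values, and red diamonds are dye-exchanged arrays. All 19 filled RANGAP2 values lie below 0, whereas the cyclins lie on both sides of it.

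With xanthine oxidase, RANGAP2 read -1.16, -0.78 and -0.99 on the 4 h arrays and -1.07, -0.71 and -0.24 on the 8 h arrays. The 4 h arrays gave its lowest mean of all conditions, -0.98 ± 0.14 (SE, n = 3), 1.97-fold lower in silenced cells (limma, adjusted p = 1.12e-05). At 8 h the mean was -0.67 ± 0.14 (SE, n = 3; limma, adjusted p = 6.17e-04), and the arrays spread more widely than at 4 h. With elicitors, fewer arrays had a value. Those of megaspermin at 4 h read -0.47 and -0.56, each from a single spot, with a mean of -0.51 ± 0.17 (SE, n = 2; limma, adjusted p = 0.0243). For megaspermin at 8 h, 1 array read -0.16. Leaving out replicate 1 or replicate 3 of megaspermin at 4 h left a single array, at -0.56 or -0.47. With the lone array assumed to vary like those of the other groups, the call was then lost (limma, adjusted p = 0.108 and 0.187). Harpin gave -0.32 and -0.30 at 4 h and -0.24 and -0.27 at 8 h. Both values at 4 h and the -0.24 at 8 h came from a single spot each. On the control and xanthine oxidase arrays both spots of this clone were measured. The 4 harpin arrays lay close together, and neither mean passed the test (-0.31 ± 0.17 and -0.26 ± 0.17, SE, n = 2 each; limma, adjusted p = 0.174 and 0.229).

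RANGAP2 thus passed the test in 5 of the 7 genotype groups where it could be tested, always as lower in silenced cells. Calls were common on these arrays. The share of all tested clones called in either direction was 29.0% in the biotic control, 22.6% in the abiotic control, 34.7% and 38.7% at 4 h and 8 h of xanthine oxidase, 31.3% and 46.0% at 4 h and 8 h of harpin, and 32.6% and 37.1% at 4 h and 8 h of megaspermin. Of the member clones tested, 1 of 3 was called in each control, 1 of 2 at each time of xanthine oxidase, 0 of 2 and 0 of 3 at 4 h and 8 h of harpin, and 1 of 2 and 0 of 2 at 4 h and 8 h of megaspermin. In every group with a call, that clone was RANGAP2 clone B. The absolute log2 ratio of RANGAP2 clone B was larger than that of 92.9% of tested clones in the abiotic control, 92.8% at 4 h of xanthine oxidase, 87.9% in the biotic control and 81.6% at 8 h of xanthine oxidase. At 8 h of harpin it was larger than that of 38.5% of them.

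Ordered by mean, the silenced-over-wild-type ratio of RANGAP2 ran from 4 h of xanthine oxidase (-0.98) through the abiotic control (-0.82), the biotic control (-0.72), 8 h of xanthine oxidase (-0.67), 4 h of megaspermin (-0.51), 4 h of harpin (-0.31) and 8 h of harpin (-0.26) to the 1 array of megaspermin at 8 h (-0.16). Within this order, single-spot values occurred only at 4 h of megaspermin and at 4 h and 8 h of harpin. The 4 harpin arrays all lay above the 3 arrays of the biotic control. That separation did not pass the test at either time: the ratio was higher by 0.41 ± 0.22 at 4 h of harpin (limma, adjusted p = 0.241) and by 0.46 ± 0.22 at 8 h of harpin (95% interval 0.01 to 0.92, limma, adjusted p = 0.164). For 4 h of megaspermin minus the biotic control the difference was 0.21 (95% interval -0.25 to 0.66). For xanthine oxidase minus the abiotic control it was -0.16 at 4 h (interval -0.57 to 0.25) and 0.15 at 8 h (interval -0.26 to 0.56). The mean over the 7 groups with at least 2 arrays, a contrast added after seeing which arrays had values, was -0.61 ± 0.06 (SE, n = 18; limma, adjusted p = 5.99e-09), beside 70.0% of all clones called in it.

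The dye-exchanged array of the abiotic control also had RANGAP2 lower in silenced cells, at -0.46 against a mean of -0.82 with the usual dyes. With a dye term in the fit, RANGAP2 stayed past the threshold in the abiotic control (-0.64, limma, adjusted p = 0.00160) and at 4 h of xanthine oxidase (-0.80, limma, adjusted p = 0.00495). It no longer passed in the biotic control (-0.54, limma, adjusted p = 0.0578), at 8 h of xanthine oxidase (-0.49, limma, adjusted p = 0.0744) or at 4 h of megaspermin (-0.34, limma, adjusted p = 0.317). The dye term for this clone rests on that 1 array.

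In wild-type cells, RANGAP2 was measured after megaspermin and not after harpin. Treated over control, 2 megaspermin arrays read 0.23 and 0.14, each from a single spot, and the mean of 0.18 ± 0.17 (SE, n = 2) did not pass the test (limma, adjusted p = 0.406; 95% interval -0.17 to 0.54). None of the 3 wild-type harpin arrays had a value for it.

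RANGAP1, the other Ran GTPase-activating protein named by a single symbol on the array and no member, was measured on all 30 arrays. Its silenced-over-wild-type ratio lay below 0 on 20 of 24 genotype arrays, with a median of -0.16 over those 24. In the biotic control RANGAP1 averaged -0.08 ± 0.10 (SE, n = 3; limma, adjusted p = 0.610), and in the abiotic control -0.23 ± 0.10 (SE, n = 3; limma, adjusted p = 0.124). The single genotype group where it passed was 8 h of harpin, at -0.45 ± 0.10 (SE, n = 3; limma, adjusted p = 7.00e-04), where its arrays read -0.29, -0.62 and -0.44. That is a condition in which RANGAP2 did not pass. In the added mean over the 7 genotype groups, RANGAP1 was also called lower in silenced cells, at -0.19 ± 0.04 (SE, n = 21; limma, adjusted p = 1.09e-04). That mean called 70.0% of all clones. On the 19 genotype arrays that measured both, the log2 ratio of RANGAP2 was below that of RANGAP1 on 16, with a median gap of -0.50. Over the 21 arrays with both, the ratios of the clones had r = -0.15 and rho = -0.17. In wild-type cells RANGAP1 was lower after harpin (-0.25 ± 0.10, SE, n = 3; limma, adjusted p = 0.0455) and after megaspermin (-0.26 ± 0.10, SE, n = 3; limma, adjusted p = 0.0394). Whether RANGAP1 and RANGAP2 differ in their response was not tested.

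**Figure D2:**
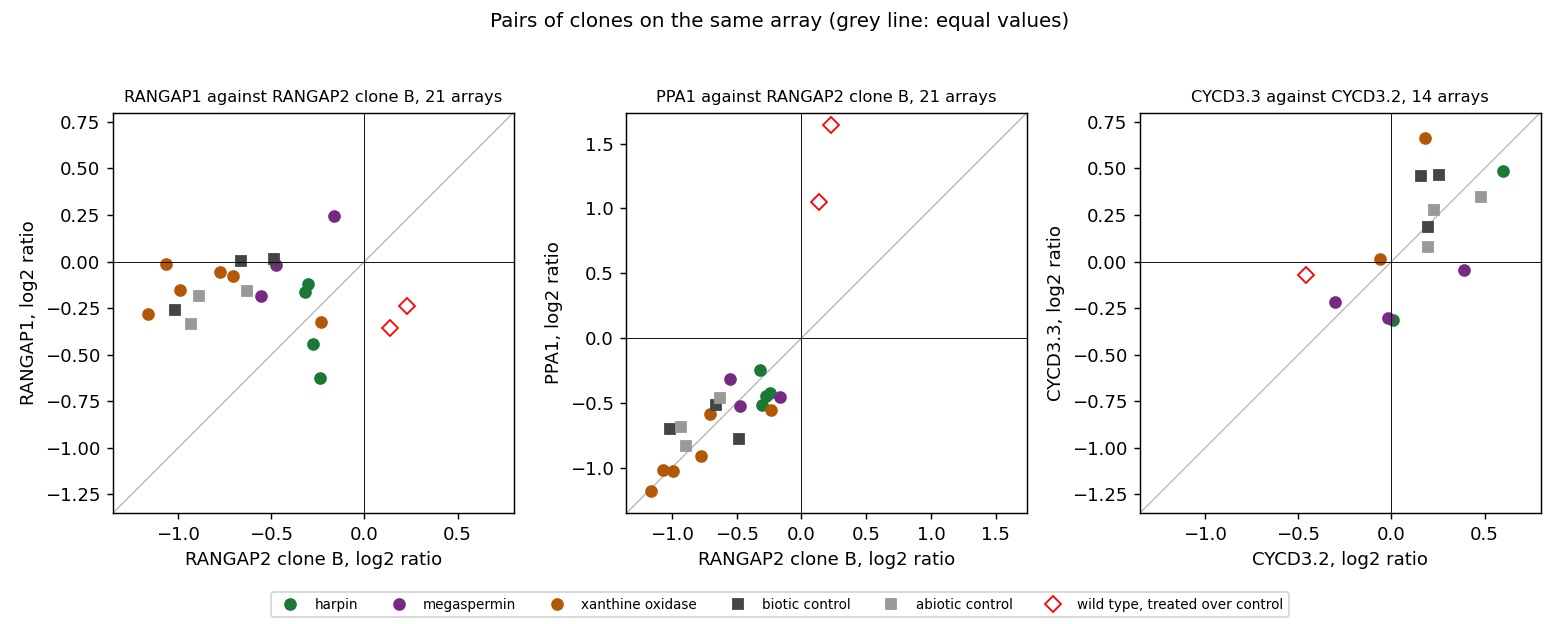
Log2 ratios of clone pairs on the same array: RANGAP1 against RANGAP2 clone B (21 arrays), PPA1 against RANGAP2 clone B (21 arrays) and CYCD3.3 against CYCD3.2 (14 arrays). Each point is an array, coloured by condition, open diamonds are wild-type arrays of treated over control cells, and the grey line marks equal values. RANGAP2 lies below RANGAP1 on 16 of 19 genotype arrays and lies near PPA1 on those arrays, but not on the wild-type ones.

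Neither cyclin passed the test between silenced and wild-type cells in any single condition, CYCD3.2 in 8 genotype groups and CYCD3.3 in the 4 where it could be tested. CYCD3.2 had 15 of 22 genotype arrays above 0 and 7 below, between -0.45 and 0.60, with a median of 0.19. In the biotic control CYCD3.2 read 0.16, 0.26 and 0.19, with a mean of 0.20 ± 0.14 (SE, n = 3; limma, adjusted p = 0.304). The abiotic control gave 0.20, 0.48 and 0.23, with a mean of 0.30 ± 0.14 (SE, n = 3; limma, adjusted p = 0.128). All 6 control arrays of the usual dye orientation were thus above 0 for CYCD3.2, by amounts that did not pass the test in either control. The dye-exchanged array of the abiotic control lay below 0, at -0.11.

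After treatment CYCD3.2 lay on both sides of 0. Harpin gave 0.48 and 0.24 at 4 h and 0.60 and 0.01 at 8 h. Megaspermin gave 0.39, -0.13 and 0.30 at 4 h, and at 8 h all 3 arrays were below 0, at -0.02, -0.27 and -0.30. Xanthine oxidase gave 0.18, -0.06 and 0.28 at 4 h and -0.18, 0.18 and -0.45 at 8 h. The group means thus stood highest at 4 h of harpin (0.36 ± 0.17, SE, n = 2; limma, adjusted p = 0.106) and lowest at 8 h of megaspermin (-0.20 ± 0.14, SE, n = 3; limma, adjusted p = 0.274). Set against its control, CYCD3.2 had a lower ratio by -0.40 ± 0.19 at 8 h of megaspermin (95% interval -0.80 to 0.00, limma, adjusted p = 0.139) and by -0.45 ± 0.19 at 8 h of xanthine oxidase (interval -0.85 to -0.05, limma, adjusted p = 0.491). Neither difference passed.

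CYCD3.2 was the single member tested in the mean over all 8 genotype groups, where it was called higher in silenced cells, by 0.14 ± 0.05 (SE, n = 22; limma, adjusted p = 0.0162), a 1.10-fold difference. That contrast called 72.3% of all clones. Without replicate 2 of harpin at 8 h the call was lost (0.11, limma, adjusted p = 0.0791). The dye-exchanged array of the abiotic control read -0.11 for CYCD3.2, against a mean of 0.30 with the usual dyes. With the dye term the mean over the 8 groups turned to -0.06 (limma, adjusted p = 0.763). For CYCD3.2, too, the dye term rests on that 1 array.

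CYCD3.3 resembled CYCD3.2 in the controls. It read 0.46, 0.47 and 0.19 in the biotic control, with a mean of 0.37 ± 0.16 (SE, n = 3; limma, adjusted p = 0.0882). In the abiotic control it read 0.08, 0.35 and 0.28, with a mean of 0.23 ± 0.16 (SE, n = 3; limma, adjusted p = 0.353). Each control array with the usual dyes was above 0 for both cyclins. The mean of both controls, a contrast added after seeing which arrays had values, was 0.30 ± 0.11 for CYCD3.3 (SE, n = 6; limma, adjusted p = 0.0394) and 0.25 ± 0.10 for CYCD3.2 (SE, n = 6; limma, adjusted p = 0.0428), and RANGAP2 was -0.77 ± 0.10 in it (limma, adjusted p = 1.82e-06). Called clones made up 38.0% of those tested in that mean. For CYCD3.2 the call was lost whichever of the 6 arrays was left out, and for CYCD3.3 with 5 of the 6. The dye-exchanged abiotic array read -0.16 for CYCD3.3, on the other side of 0. With the dye term, which for both cyclins rests on that array alone, the mean of the controls was 0.11 for CYCD3.3 and 0.05 for CYCD3.2 (limma, adjusted p = 0.665 and 0.832).

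With treatment, CYCD3.3 had few values. Single arrays gave -0.60 at 4 h of harpin, -0.05 at 4 h of megaspermin, 0.01 at 4 h of xanthine oxidase and 0.66 at 8 h of xanthine oxidase, and none of these groups was tested. The last of these came from spots at 0.14 and 1.18, and the -0.60 came from a single spot. At 8 h, harpin arrays read 0.49 and -0.32, and megaspermin arrays read -0.30 and -0.22, each from a single spot. CYCD3.3 was thus below 0 at 8 h of megaspermin, as CYCD3.2 was, where the biotic control had been above 0 for both. The difference for CYCD3.3 was -0.63 ± 0.25 (95% interval -1.15 to -0.11), which did not pass after adjustment (limma, adjusted p = 0.0713).

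In wild-type cells CYCD3.3 was lower after harpin. Treated over control, 2 arrays read -0.94 and -0.49, each from a single spot, and the mean was -0.72 ± 0.19 (SE, n = 2), 1.64-fold lower in harpin-treated cells (limma, adjusted p = 0.00464). Among all tested clones 53.5% were called in that comparison, and the ratio of CYCD3.3 was larger in size than that of 74.2% of them. Without replicate 2 the 1 array left gave -0.49, and the call was lost when that array was assumed to vary like those of the other groups (limma, adjusted p = 0.169). After megaspermin CYCD3.3 read -0.07 and -0.58, with a mean of -0.33 ± 0.19 (SE, n = 2) that did not pass (limma, adjusted p = 0.182). CYCD3.2 read -0.46 and -0.09 after megaspermin, with a mean of -0.27 ± 0.17 (SE, n = 2; limma, adjusted p = 0.193), and had no value after harpin. In the megaspermin comparison 46.0% of clones were called, against 0 of the 3 member clones tested, none of which had an unadjusted p under 0.05. Harpin and megaspermin differed for CYCD3.3 by -0.39 ± 0.27 (95% interval -0.96 to 0.18, limma, adjusted p = 0.394), in a contrast that called 13.9% of clones. The cyclins thus read below 0 on all 6 wild-type values, and 1 mean of 3 passed. Each of these values but the -0.46 of CYCD3.2 came from a single spot.

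No difference between conditions passed the test for any member. Over 11 such contrasts, 22 combinations of clone and contrast could be tested with limma, and 0 were called, while 3 had an unadjusted p under 0.05. The 3 were RANGAP2 at 8 h of harpin against the biotic control, CYCD3.3 at 8 h of megaspermin against the biotic control and CYCD3.2 at 8 h of xanthine oxidase against the abiotic control. All clones gave many calls in the contrasts with elicitors: 14.2% and 17.8% for 4 h and 8 h of harpin against the biotic control, 17.2% and 25.8% for 4 h and 8 h of megaspermin, 20.4% for harpin at 8 h against 4 h and 15.8% for megaspermin at 8 h against 4 h. The abiotic contrasts called few clones of any kind, 0.0563% and 0.302% for 4 h and 8 h of xanthine oxidase against the abiotic control and 0.875% for 8 h against 4 h. The controls differed from each other at 3.75% of clones. Intervals of the member differences reached 0.4 or more from 0 on at least 1 side in each test, so differences of that size were not excluded.

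**Figure D3:**
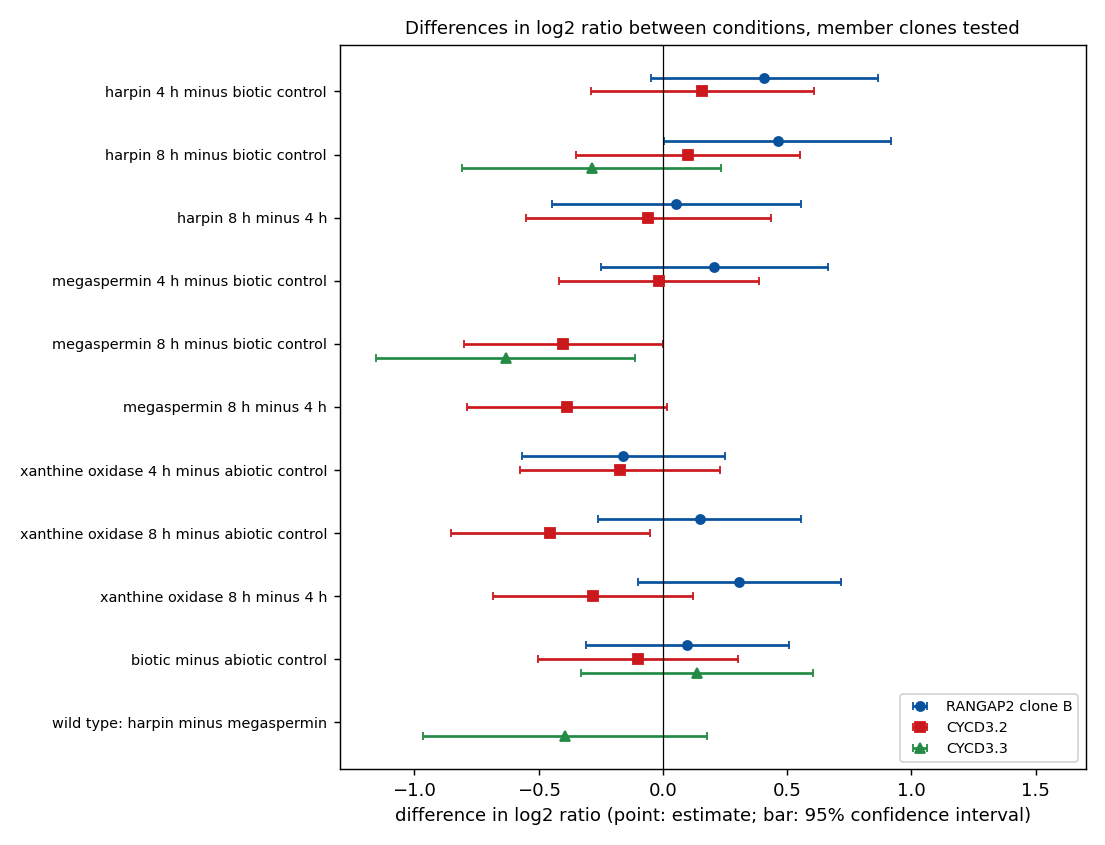
Difference in log2 ratio between conditions (horizontal axis) for each member clone and contrast that could be tested, with 95% confidence intervals from the moderated fit. Circles are RANGAP2 clone B, squares CYCD3.2 and triangles CYCD3.3. Of the 22 intervals, 3 do not cross 0, and 0 of the 22 differences passed after adjustment.

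Across arrays the cyclins moved partly together. Over the 14 arrays that measured both, their log2 ratios had r = 0.60 and rho = 0.61, and r = 0.53 without the 2 arrays farthest from the median of CYCD3.2. CYCD3.3 against RANGAP2 gave r = -0.61 over 14 arrays, -0.47 without the 2 arrays farthest from the median of CYCD3.3, and -0.44 over the 12 genotype arrays. With both restrictions r was 0.08. For CYCD3.2 and RANGAP2 the correlation was r = -0.27 over 20 arrays and close to 0 (0.00) over the 19 genotype arrays. These are descriptions over arrays that share pooled cultures and conditions.

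Among the named clones that share its arrays, numbered loci left out, PPA1 had the ratio most like that of RANGAP2. PPA1, an inorganic pyrophosphatase, had r = 0.81 over 21 arrays. Over the 19 genotype arrays r was 0.79, and PPA1 was below 0 on each of them, between -1.18 and -0.25. On the 2 wild-type megaspermin arrays PPA1 read 1.64 and 1.05, where RANGAP2 read 0.23 and 0.14. After PPA1 came STUGE45 (r = 0.68), 2 clones of the catalase CAT1 (r = 0.63 and 0.59) and IPKA (r = 0.53), of 130 candidates. Over the 19 genotype arrays r fell to 0.53 for STUGE45, to 0.41 and 0.23 for the CAT1 clones and to 0.43 for IPKA. The most opposed were MIP2, an aquaporin of the major intrinsic protein family (r = -0.71), the plasma membrane proton pump PHA2 (r = -0.71) and the methionine synthase MS (r = -0.70). The 18 arrays shared with MIP2 were all genotype arrays. For PHA2 and MS r was -0.58 and -0.49 over the 19 genotype arrays.

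The closest pattern to CYCD3.3 was that of a polyphenol oxidase clone, PPO (r = 0.74, n = 18), followed by PSBR, a subunit of photosystem II (r = 0.68), a second PPO clone (r = 0.67), DE2 (r = 0.64) and the dehydroascorbate reductase DHAR (r = 0.63). PPA1 was the most opposed (r = -0.58), then RSI5 (r = -0.56) and a clone of the flavonol synthase FLS (r = -0.49). Over the genotype arrays these were closer to 0, at -0.32, -0.33 and -0.24 over 14 arrays, and DHAR was at 0.34 over 13. The PPO clones were at 0.61 and 0.54, PSBR at 0.64 and DE2 at 0.50 over the 14. For CYCD3.2, none of the 121 named candidates had r above 0.50 over its arrays: DHAR2 reached 0.47 over 22 arrays, another FLS clone 0.41, 2 clones of the glycolytic enzyme GAPDH 0.40 each and DE2 0.40. Over the 20 genotype arrays shared with DHAR2 its r was 0.83, and over the 22 shared with the GAPDH clones r was 0.25 and 0.51. The sucrose transporter SUT2 was the most opposed to CYCD3.2 (r = -0.52), then TOM20, a receptor for protein import into mitochondria (r = -0.49), and CDPK2, a calcium-dependent protein kinase (r = -0.44). Over the genotype arrays the order changed, with SUT2 at -0.34 over 20 arrays and TOM20 at -0.59 and CDPK2 at -0.35 over 22.

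The array names few other clones of these pathways. The list for cell division matched no clone but the 2 cyclins, that for Ran and nuclear transport only RANGAP1 and RANGAP2, and that for the cytoskeleton none. Auxin, cytokinin and ethylene, sugar supply, and cell expansion and wall had 3 clones each. With RANGAP1 these make 10 clones besides the members. In the biotic control 2 of the 10 were higher and 2 lower in silenced cells, with a median log2 ratio of 0.05 against -0.03 for all clones, of which 14.2% were called higher and 14.8% lower. The higher clones were the ethylene receptor ERS (2.62 ± 0.28, SE, n = 3; limma, adjusted p = 2.58e-08) and the acid invertase PAIN-1 (0.97 ± 0.14, SE, n = 3; limma, adjusted p = 4.66e-06). Both clones lower in silenced cells were of STUGE51 (-0.75 and -0.47). In the abiotic control 3 of 10 were higher and 4 lower, with a median of -0.10 against -0.02 for all clones, of which 11.4% were called higher and 11.3% lower. After harpin in wild-type cells 4 of 8 tested were higher and 1 lower than in control cells, with a median of 0.34 against 0.06 for all clones, of which 26.9% were called higher and 26.6% lower. After megaspermin 3 of 8 were higher and 1 lower, with a median of 0.19 against 0.03 for all clones, of which 23.3% were called higher and 22.8% lower. In either direction together, the called shares of the list clones in wild-type cells were thus near those of all clones. After each elicitor more list clones were higher than lower. In both controls the called share of the list clones was above that of all clones in each direction. The lists were written with earlier results of these data known.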

How the data were processed

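The deposited table holds, per spot, values read as log2 ratios made by the authors. Neither the labels nor the file headers give their normalization, filters or log base. The 2 spots of a clone, paired by the array's layout (checked on all 905 named pairs), were averaged. For each clone a linear model of group means was fitted to the 30 arrays of the usual dye orientation, with variances moderated in limma 3.58.1 (R 4.3.3), and p-values were adjusted by Benjamini-Hochberg over all clones tested in a comparison (threshold 0.05). No value was imputed. There were 22 planned comparisons, and 2 were added after seeing which arrays had values. The script was tested on simulated data. Alternatives were scaling, centring, array weights, a dye term, single spots, all 3 arrays, the groups alone, a replicate block and each array left out. Replicate numbers were not used to pair arrays in the main fit. Over 135 pairs of same-numbered arrays, deviations from group means had a median correlation of -0.03 (-0.42 to 0.36). The median was 0.01 for arrays with other numbers. Of the 135 pairs, 23 were above 0.1, and a median cannot show whether arrays were paired in some of the groups. Every clone of the members was described. The likest clones were the 5 highest and 3 lowest by Pearson correlation among clones with 1 symbol that had values on at least 80% of the clone's arrays and on at least 12 arrays. Numbered loci (symbols starting with LOC) were left out of these candidates. Members and lists were chosen with earlier results of these data known. Precision is limited by the number of arrays. No sequences are shown.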

Additional observations from a re-analysis of the deposited data

Results flagged for a closer look

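The silenced-over-wild-type ratio of CYCD3.2 at 8 h lay above 0 on both harpin arrays with a value (0.60 and 0.01) and below 0 on the 3 megaspermin arrays (-0.02, -0.27 and -0.30), a difference of 0.50 between the means. Opposite signs were the rule by which this pair was picked, so they are no result in themselves. On each side 1 value was close to 0. The harpin value of 0.01 averaged spots at 0.23 and -0.21, and the megaspermin value of -0.02 averaged spots at -0.06 and 0.02. The values of 0.60 and -0.27 each came from a single spot. The difference between the elicitors was not tested.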

How the results depend on the processing

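RANGAP2 was below 0 under every alternative run in the 7 genotype groups where it was tested, and its calls in the abiotic control and at 4 h of xanthine oxidase passed in all that gave a value. With the dye term it was -0.54 in the biotic control, -0.34 at 4 h of megaspermin and -0.49 at 8 h of xanthine oxidase, none past the threshold, and with only the groups of the contrast its value at 4 h of megaspermin, -0.51, did not pass either (limma, adjusted p = 0.0732). Leaving out single arrays gave -0.56 to -0.47 at 4 h of megaspermin. For CYCD3.2 the dye term turned the mean of the 8 groups to -0.0609 and took the mean of the controls to 0.049, and the second spot alone gave 0.0835 and 0.21, both without a call. CYCD3.2 gained a call in the abiotic control with scaled arrays (0.44) or array weights (0.28), at 8 h of harpin with array weights (0.39) and at 4 h of harpin with the first spot alone (0.56). Single arrays left out gave it 0.11 to 0.18 for the mean of the 8 groups, 0.21 to 0.28 for the controls and 0.009 to 0.60 at 8 h of harpin. CYCD3.3 gained a call in the biotic control with scaled arrays (0.46), array weights (0.41), the groups alone (0.37) or the second spot alone (0.46), and at 8 h of megaspermin against the biotic control with scaled arrays (-0.75), the groups alone (-0.63), array weights (-0.68) or the second spot alone (-0.72). At 8 h of megaspermin CYCD3.3 had second-spot values only, so the second spot alone changed only the biotic control side of its estimate. Its mean of the controls was 0.11 with the dye term, and 0.27 to 0.35 without single arrays. In wild-type cells after harpin it was -0.94 to -0.49 without single arrays. With the replicate block, CYCD3.3 in the mean of the controls was 0.30 and just missed the threshold (limma, adjusted p = 0.0504), and the block changed no other call. The cause of these changes was not tested, except that a left-out array or spot means fewer values. The number of all clones called moved by over 1.5 times in 9 of 24 comparisons with array weights, 7 with the dye term, 6 with the groups alone and 5 with scaled arrays. For 4 h of xanthine oxidase against the abiotic control the 5 calls became 511 with array weights and 0 with the replicate block, and for 8 h against 4 h of xanthine oxidase the 69 calls became 0 with the groups alone.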
